A study of Mus musculus with 3 samples.

Results

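Carbonic anhydrases were followed in NMuMG cells, an epithelial line derived from mouse mammary gland, with and without the small MAF protein MafK. The family is made of zinc enzymes that interconvert carbon dioxide and water with bicarbonate and protons. Its members differ mainly in where they act: in the cytosol, in mitochondria, on the cell surface or in secretions. In secretory and ion-transporting epithelia they feed bicarbonate and proton transporters, and the surface enzymes CA9 and CA12 are known in human tumour cells as products of genes responsive to low oxygen.

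The 10 genes described are Car2, Car3, Car4, Car5b, Car6, Car8, Car9, Car12, Car13 and Car14, of 19935 genes measured. They were selected on family name, and the family itself was chosen by measured values, because Car13 differed between the MAFK clones and from mock. The values that follow for these genes are therefore a description, with no test. Each of the 10 genes had 1 probe set with a single annotated symbol, so no choice between probe sets was needed.

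Each of 3 Affymetrix GeneChip arrays held one cell population: a stable clone with the transgene pCAGIP-FLAG-MafK, clone 10 (n = 1), a further stable clone with that transgene, clone 4 (n = 1), and mock cells with the vector pCAGIP alone (n = 1). All cells were grown with puromycin, so the mock cells shared the vector and its selection. The MAFK lines are single clones, and the labels do not say whether mock was cloned, so the transgene and the cloning cannot be told apart. Each clone and mock has 1 array, with no repeat culture or RNA extraction. Any p-value rests on the spread between the 2 clones, in which clonal and technical differences cannot be told apart. The spread of mock was not measured.

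Values are log2 RMA expression per probe set, with array medians of 6.93 in clone 10, 6.92 in clone 4 and 6.89 in mock. The Mafk probe set read 8.59 in clone 10 and 8.74 in clone 4, against 8.49 in mock. As it was not analysed here which transcript region the probes cover, these values do not check the labels. Of 8 epithelial markers, Krt8, Krt18 and Krt19 read above 10.9 on every array, whereas Epcam (5.58) and Esrp1 (5.48) read the same low value on all 3. The E-cadherin gene Cdh1 read 6.64 in clone 10 and 6.85 in clone 4, against 11.35 in mock. Of 4 immune and 4 endothelial markers, none was at least 2-fold from mock in both clones. Median polish, the last step of RMA, can return exactly equal values on few arrays, and 55.5% of all genes were equal in both clones and 34.3% on all 3 arrays.

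A pair of sequences is shown because the results turn on one gene that was lower in both clones, Car5b, and because Car9 is the family member best known for its response to low oxygen. They are windows of 300 bases, from 250 bases before to 50 bases after the gene's start, from RefSeq on GRCm38.p6, written 5′ to 3′ on the strand of the gene. A window was found for 6 of the 10 genes, Car4, Car5b, Car6, Car9, Car12 and Car14. Car2, Car3, Car8 and Car13 had none. Capitals mark every match, on either strand, to the motifs named after the sequences.
Car5b, chrX:164027961-164028260, minus strand: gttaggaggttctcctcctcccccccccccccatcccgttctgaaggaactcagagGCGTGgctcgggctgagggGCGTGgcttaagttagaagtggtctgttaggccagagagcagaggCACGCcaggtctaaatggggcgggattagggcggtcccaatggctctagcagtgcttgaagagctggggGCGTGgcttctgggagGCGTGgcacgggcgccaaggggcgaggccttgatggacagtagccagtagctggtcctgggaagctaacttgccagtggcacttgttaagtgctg
Car9, chr4:43506776-43507075, plus strand: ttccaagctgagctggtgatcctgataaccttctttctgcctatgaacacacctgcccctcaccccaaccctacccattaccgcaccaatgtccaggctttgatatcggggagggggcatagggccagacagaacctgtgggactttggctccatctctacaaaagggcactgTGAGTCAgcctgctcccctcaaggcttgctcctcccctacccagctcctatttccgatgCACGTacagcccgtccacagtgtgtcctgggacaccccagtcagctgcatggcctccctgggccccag

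The motifs searched, on both strands, were one arm of the palindromic MAF recognition element (letters TGCTGA), the AP-1 core (letters TGACTCA), the antioxidant response core that small MAF dimers bind with CNC factors (letters TGACNNNGC) and 2 forms of the hypoxia response core, one spelled ACGTG and the other spelled GCGTG. The AP-1 letters and the antioxidant core can overlap. The MAF arm was found in 19.5% of 32817 such windows of all genes, the AP-1 core in 5.2%, the antioxidant core in 12.4%, the first hypoxia form in 19.6% and the second in 32.4%. The window of Car5b held 5 matches to the second hypoxia form and none to the other 4 motifs. The shares above count windows with at least 1 match, so they give no reference for a count of 5. The window of Car9 held 1 AP-1 match and 1 match to the first hypoxia form. None of the 6 windows held the MAF arm or the antioxidant core, which says only that these letters are not in these windows.

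Among the cytosolic enzymes, Car13, which encodes a catalytically active enzyme of several epithelia, differed most. Its level was 6.11 in clone 10 and 8.67 in clone 4, against 10.47 in mock. All 3 arrays were apart: clone 10 lay below its array median, clone 4 above it, and mock was the highest. In RNA from whole cultures, fewer cells expressing a gene and less RNA per cell cannot be told apart. On the log2 scale Car13 differed from mock by -4.36 in clone 10 (20.6-fold lower) and by -1.80 in clone 4 (3.49-fold lower). The MAFK mean was 7.39 ± 1.81 (SD, n = 2), and this wide SD is the difference between the clones. Clone 10 differed from clone 4 by -2.56 (5.90-fold lower), the lowest such difference of all 19935 genes. By the difference from mock, Car13 ranked 11 from the lowest in clone 10 and 172 from the lowest in clone 4.

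The other cytosolic members stayed near mock. Car2, the highly active enzyme of red cells, kidney and osteoclasts, read 6.56 in both clones, against 6.97 in mock, a difference of -0.41 (1.32-fold lower). Car3, an enzyme abundant in muscle and fat with low hydratase activity, read 5.90 on all 3 arrays. Car3 was below the array median on every array, so a fall could be missed. Car2 was below it in both clones and just above it in mock, so its difference may be compressed. Of the marker lists for fat and for skeletal muscle, none of 5 and none of 6 measured genes was at least 2-fold from mock in both clones.

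Car5b encodes a mitochondrial carbonic anhydrase, which supplies bicarbonate inside that organelle. Its level was 10.09 in clone 10 and 9.06 in clone 4, against 11.74 in mock. All 3 values lay well above the array medians, and both clones lay below mock. Car5b differed from mock by -1.65 in clone 10 (3.14-fold lower) and by -2.68 in clone 4 (6.41-fold lower), with a MAFK mean of 9.58 ± 0.73 (SD, n = 2). Here the order of the clones was the reverse of that for Car13, with clone 10 higher than clone 4 by 1.03 (2.04-fold).

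**Figure D1:**
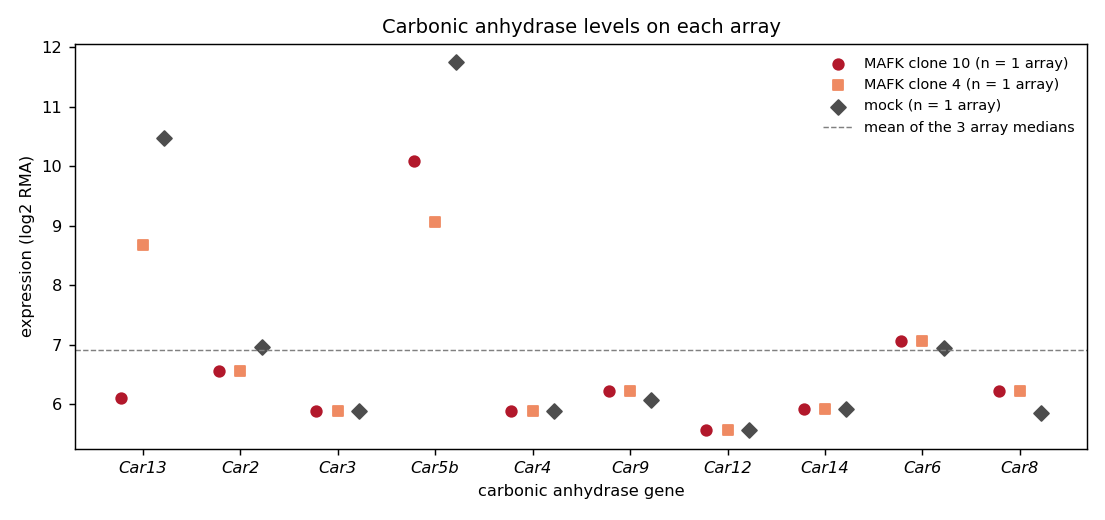
Expression on the log2 RMA scale (vertical axis) of the 10 carbonic anhydrase genes on each array, with 1 point for MAFK clone 10, MAFK clone 4 and mock, n = 1 array each. The dashed line is the mean of the 3 array medians. Car13 and Car5b are spread over the arrays, and the other 8 genes lie between 5.56 and 7.07.

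Of the surface enzymes, the lipid-anchored Car4 (5.88), the transmembrane Car12 (5.56) and the transmembrane Car14 (5.93) each had the same value on all 3 arrays. Car9, the transmembrane enzyme whose promoter is shown above, read 6.23 in both clones, against 6.07 in mock, a difference of 0.16. These 4 genes were below the array median on every array, where differences on the RMA scale are compressed, so a fall or a small change in a low transcript could be missed.

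The secreted enzyme Car6, known from saliva and milk, read 7.07 in both clones, against 6.94 in mock, a difference of 0.13. Car8 encodes a related protein without enzyme activity that binds the inositol trisphosphate receptor. It read 6.23 in both clones, against 5.86 in mock, a difference of 0.36. Among the differences under 2-fold in the family, Car2 alone lay below mock on the deposited values (-0.41). With 1 mock array the error of such differences is unknown.

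Taken by counts, 2 of the 10 genes (Car13 and Car5b) were at least 2-fold lower than mock in both clones and 0 were at least 2-fold higher. Of all genes, 1.81% (361 of 19935) were lower by this rule and 1.19% (237) were higher. Since Car13 brought the family to attention, nothing is read from that difference in share. No member lay close to the 2-fold threshold: the smaller of a gene's 2 differences was 1.65 in size for Car5b, the nearest member inside it, and 0.41 for Car2, the nearest outside it. The other 8 genes differed from mock by -0.41 to 0.36. The median difference over the 10 genes was 0 in both clones, and over all genes it was also 0. Equal values in both clones were found for 8 of the 10 genes, and 4 of these (Car3, Car4, Car12 and Car14) were equal on all 3 arrays. Over all genes these shares were 55.5% and 34.3%. For 6 of the 10 genes no array read above its median, and 4 read above it on at least 1 array. By a closely similar cut, the median of all values pooled over the arrays, 11050 of all 19935 genes reached it on at least 1 array.

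Between the clones, 1 gene (Car13) was at least 2-fold lower in clone 10 than in clone 4, as were 0.221% of all genes (44 of 19935). One gene (Car5b) was at least 2-fold higher in clone 10 than in clone 4, again against 0.221% of all genes (44). This comparison is of 1 array with 1 array and has no replicate check.

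**Figure D2:**
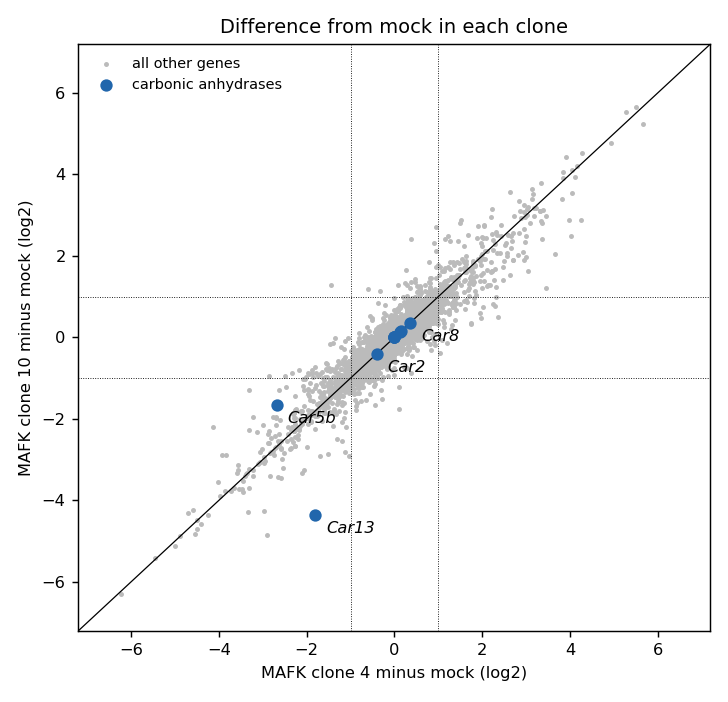
Difference from mock on the log2 scale in MAFK clone 4 (horizontal axis) and MAFK clone 10 (vertical axis) for all 19935 genes, with the 10 carbonic anhydrases in blue. Dotted lines mark 2-fold, and the diagonal marks equal differences. Car13 (-4.36 in clone 10) lies far below the diagonal and Car5b above it, and the other 8 genes lie on it, close to 0.

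Genes lower than mock in both clones and also at least 2-fold apart between them were few, 23 in all, a set formed after the values were seen. Car13 was among the 12 that were lower still in clone 10. The others of that kind included Lgals2, a galectin (-4.84 in clone 10 and -2.90 in clone 4), Plac8 (-4.27 and -2.97), the retinol carrier Rbp4 (-3.24 and -2.06) and the ubiquitin ligase gene Rnf128 (-3.32 and -2.11). Car5b was among the 11 that were lower still in clone 4. Others of that kind were the connexin 43 gene Gja1 (-2.87 in clone 10 and -3.93 in clone 4), the heparan sulfatase Sulf2 (-1.29 and -3.31), the endocytic receptor Lrp1 (-1.21 and -2.46) and the calcium-binding S100a4 (-1.65 and -2.75). Of the 23 genes, 4 were X-linked (17.4%), and of all genes 739 were (3.71%), a difference that was not tested.

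**Figure D3:**
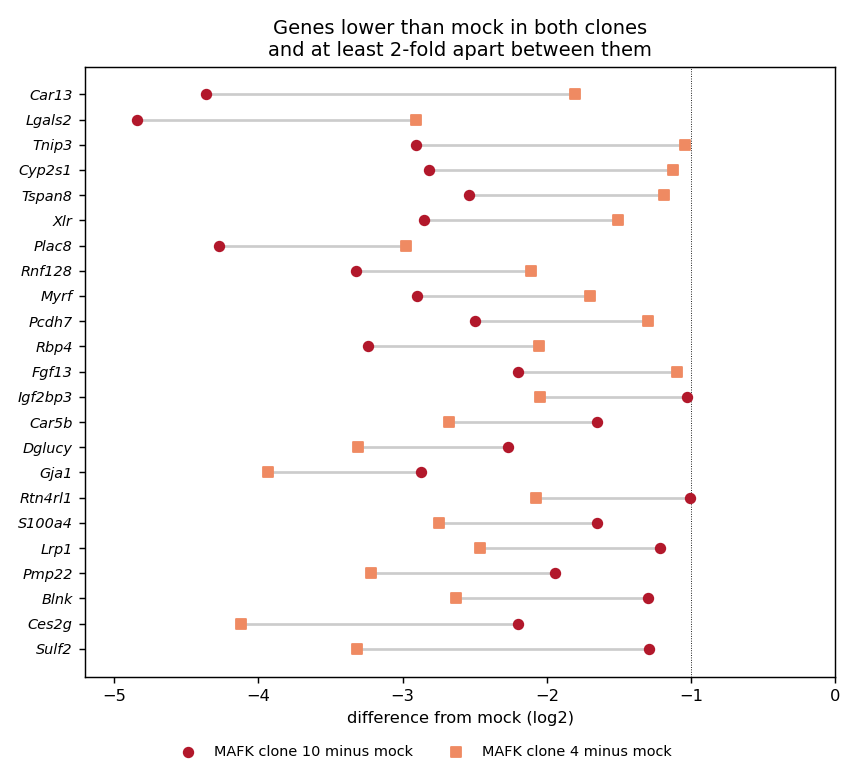
Difference from mock on the log2 scale (horizontal axis) in MAFK clone 10 and MAFK clone 4 for the 23 genes at least 2-fold lower than mock in both clones and at least 2-fold apart between the clones. The grey bar joins the 2 clones of a gene, and the dotted line marks 2-fold. Car13 has the widest gap (clone 10 minus clone 4 of -2.56), and Car5b one of the narrowest (1.03).

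By the distance between pairs of differences from mock (clone 10 and clone 4, over 3 arrays), the 5 genes most like Car13 were Rnf128 (distance 1.09 on the log2 scale), Rbp4 (1.15), Plac8 (1.17), the cadherin gene Cdh6 (1.20) and Lgals2 (1.20). All 5 were less far apart between the clones than Car13: their differences of clone 10 minus clone 4 ran from -1.93 for Lgals2 to -0.87 for Cdh6.

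Car13, Car1, Car3 and Car2 lie next to each other on chromosome 3, in that order among genes with a probe set. No other gene of this stretch was 2-fold from mock. Car2 was lower by 1.32-fold in both clones, as given above, and Car3 was equal on all arrays. Car1, the red cell enzyme, read 6.23 in both clones, against 6.21 in mock. None of the 12 nearest genes, 6 on each side of the cluster, was 2-fold from mock in both clones. Their differences ran from -0.02 (Gm10745) to 0.48 (Rbis), and 6 of them were equal on all 3 arrays. Only Lrrcc1, E2f5, Rbis and Ythdf3 of these neighbours read above the array medians. The other neighbours, and Car1 and Car3 within the cluster, were below the median on every array, where a fall could be missed. The cell cycle factor E2f5, close to Car13 on the left, read 8.43 on all 3 arrays, and Ythdf3, which encodes a reader of methylated RNA, read 10.55 in clone 10 and 10.80 in clone 4, against 10.55 in mock. On chromosome 3 as a whole, the rule was met by 23 lower genes of 943 (2.44%) and by 19 higher ones (2.01%).

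Car5b lies on the X chromosome, where its surroundings differed from those of Car13, a comparison added after the values were seen. Of its 12 nearest genes, 3 were at least 2-fold lower than mock in both clones and none higher. Grpr, Rnf138rt1, Cltrn and Bmx read below the array median on every array, fewer low neighbours than Car13 had. The surroundings of Car5b and Car13 therefore also differed in how many genes could show a fall. Pir, which encodes the iron-binding nuclear protein pirin, fell, with differences of -3.03 in clone 10 and -2.95 in clone 4 (limma adjusted p = 0.0258). Its level was below the array median in both clones, where differences between the clones are compressed. Vegfd, a lymphatic growth factor gene, differed by -1.86 in clone 10 and -2.28 in clone 4 (limma adjusted p = 0.0917), and it passed with the arrays centred on their medians (limma adjusted p = 0.0468). The calcium-binding gene S100g differed by -2.07 in clone 10 and -1.20 in clone 4 (limma adjusted p = 0.25). The genes directly beside Car5b stayed near mock: Ap1s2 differed by -0.08 in both clones, and Siah1b by 0.14 in clone 10 and 0.31 in clone 4. Across the X chromosome, with 739 genes, the 2-fold rule was met by 18 lower genes (2.44%) and 15 higher ones (2.03%), and the mean difference was 0.02 in each clone. Xist, the RNA that coats the silenced X chromosome, read 5.44 in clone 10 and 5.52 in clone 4, against 11.74 in mock. The part of Xist in the level of Car5b was not tested.

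**Figure D4:**
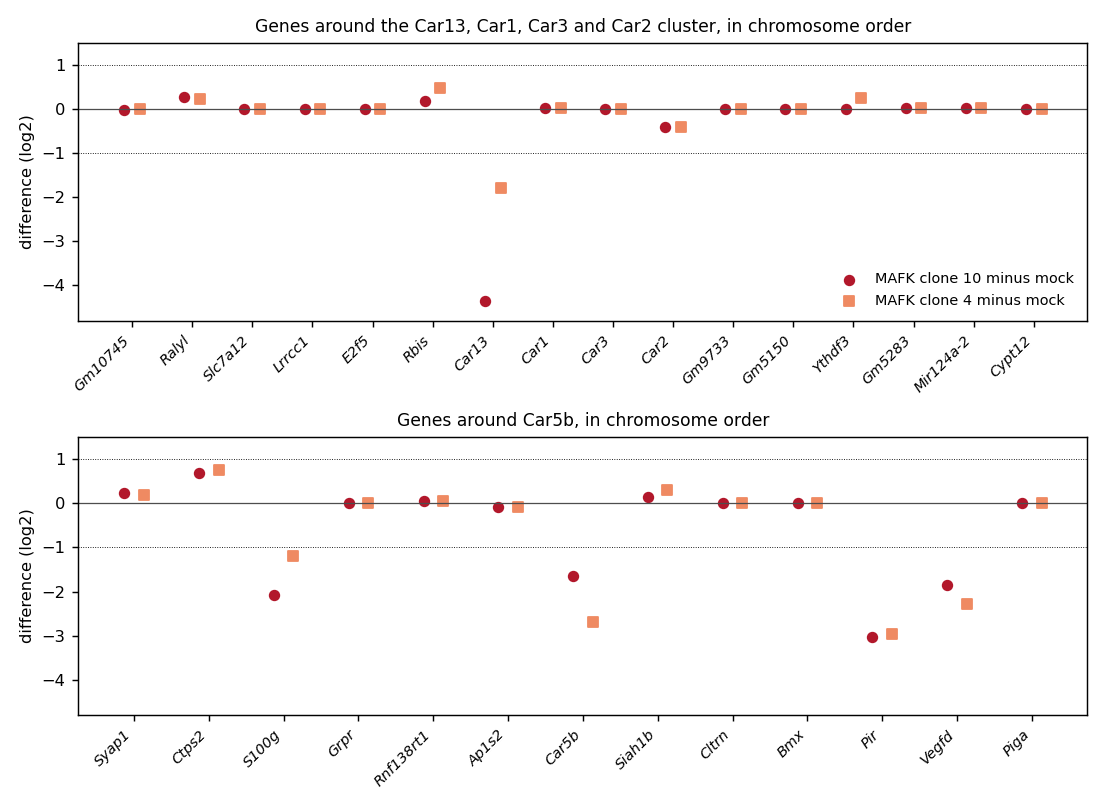
Difference from mock on the log2 scale (vertical axis) in MAFK clone 10 and MAFK clone 4 for genes in their order on the chromosome, around the Car13 to Car2 cluster (upper panel) and around Car5b (lower panel). Dotted lines mark 2-fold. In the upper panel Car13 is the one gene past 2-fold; in the lower panel S100g, Car5b, Pir and Vegfd are.

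Relatives of the 10 genes gave little difference from mock. The other 6 carbonic anhydrases with a probe set (Car1, Car5a, Car7, Car10, Car11 and Car15) were above mock by 0.02 to 0.29 in both clones, all under 2-fold, except that Car1 lay below mock with the arrays centred on their medians (-0.01 in both clones) or quantile normalized again (-0.02 in both). The receptor phosphatase genes Ptprg and Ptprz1 encode proteins with a carbonic anhydrase-like outer domain. Ptprz1 read 5.15 on all 3 arrays. Car1, Car5a, Car7, Car10, Car15 and Ptprz1 were below the array median on every array, where a fall could be missed. Ptprg read 8.63 in clone 10 and 7.64 in clone 4, against 8.87 in mock, a difference past 2-fold in clone 4 alone (limma adjusted p = 0.726).

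Partners of the enzymes in acid and base handling included a few genes far below mock. "Rose" and "fell" are kept here for genes that met the 2-fold rule and had a limma adjusted p under 0.05, and 0.401% of all genes rose and 0.762% fell. Of 20 measured bicarbonate and anion transporter genes, 1 fell and none rose. Slc4a4, the sodium bicarbonate cotransporter to which cytosolic and surface carbonic anhydrases are functionally linked, read 5.82 in clone 10 and 5.71 in clone 4, against 9.58 in mock. It fell by 3.82 ± 0.09 (SE, n = 2 against 1) on the log2 scale (limma adjusted p = 0.0256). Unlike Car13 it read nearly the same in the clones, which differed by 0.10. Both clone values of Slc4a4 lie below the array medians (6.93 in clone 10 and 6.92 in clone 4). Differences are compressed there, so the small gap and the small SE may come from the low level. The sulfate transporter gene Slc26a2 differed by -1.47 in clone 10 and -1.36 in clone 4 (limma adjusted p = 0.0514), and it passed in 4 of the other settings tried (lowest adjusted p 0.0301). Over the list the median was 0.01 for clone 10 and 0 for clone 4 relative to mock, and the clones differed most for Slc26a11, by -0.13.

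Of 17 measured proton and lactate transporter genes, 2 fell and none rose, both sodium-proton exchangers. Slc9a2, an exchanger of epithelial surfaces, read 6.18 in clone 10 and 6.11 in clone 4, against 8.09 in mock, and fell by 1.94 on the log2 scale (limma adjusted p = 0.0343). Slc9a9, an exchanger of endosomes, read 5.96 in clone 10 and 5.88 in clone 4, against 7.76 in mock, and fell by 1.84 (limma adjusted p = 0.0346). The clone values of Slc9a2 and Slc9a9 also lie below the array medians, with the limit given for Slc4a4. The lactate carrier gene Slc16a1 differed by -0.71 in clone 10 and -0.79 in clone 4 (limma adjusted p = 0.0885). The other 15 genes of this list were not 2-fold from mock in both clones, and the median over the list was 0 in each clone.

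Among the enzymes that use bicarbonate and the low-oxygen response genes, Pdk1 alone was at least 2-fold from mock in both clones on the deposited values. None of 8 measured carboxylases and carbamoyl phosphate synthases was 2-fold from mock in both clones. The mitochondrial propionyl-CoA carboxylase gene Pcca, whose product acts in the compartment of Car5b, differed by -0.55 in clone 10 and -0.96 in clone 4 (limma adjusted p = 0.267). The acetyl-CoA carboxylase gene Acacb differed from mock by 0.01 in clone 10 and by 0 in clone 4 (limma adjusted p = 1). Of 29 measured low-oxygen response genes none rose or fell. Pdk1, a kinase that holds pyruvate dehydrogenase back, was higher by 1.02 in clone 10 and 1.04 in clone 4 (limma adjusted p = 0.0561). After the arrays were quantile normalized again it passed (limma adjusted p = 0.0381). With the arrays centred on their medians, Pdk1 was higher by 0.99 in clone 10, under 2-fold, and by 1.00 in clone 4. Further low-oxygen genes lay below 2-fold but away from mock, and 3 of them were named after the values were seen. The mitophagy gene Bnip3 was higher by 0.82 in clone 10 and 0.92 in clone 4 (limma adjusted p = 0.0835). The oxygen sensor gene Egln1 was higher by 0.67 in clone 10 and 0.72 in clone 4 (limma adjusted p = 0.0896). Pfkfb3, a glycolytic regulator gene, differed by -0.90 in both clones (limma adjusted p = 0.0643). Vegfa, the growth factor gene, was higher by 0.14 in clone 10 and 0.79 in clone 4 (limma adjusted p = 0.749). The prolyl hydroxylase gene P4ha2 lay 0.17 above mock in clone 10 and differed by -0.39 in clone 4 (limma adjusted p = 1). Hif1an, which encodes an oxygen-dependent inhibitor of hypoxia-inducible factor, read 8.49 in clone 10 and 8.77 in clone 4, against 8.49 in mock. The medians of the low-oxygen list were 0.01 in both clones.

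**Figure D5:**
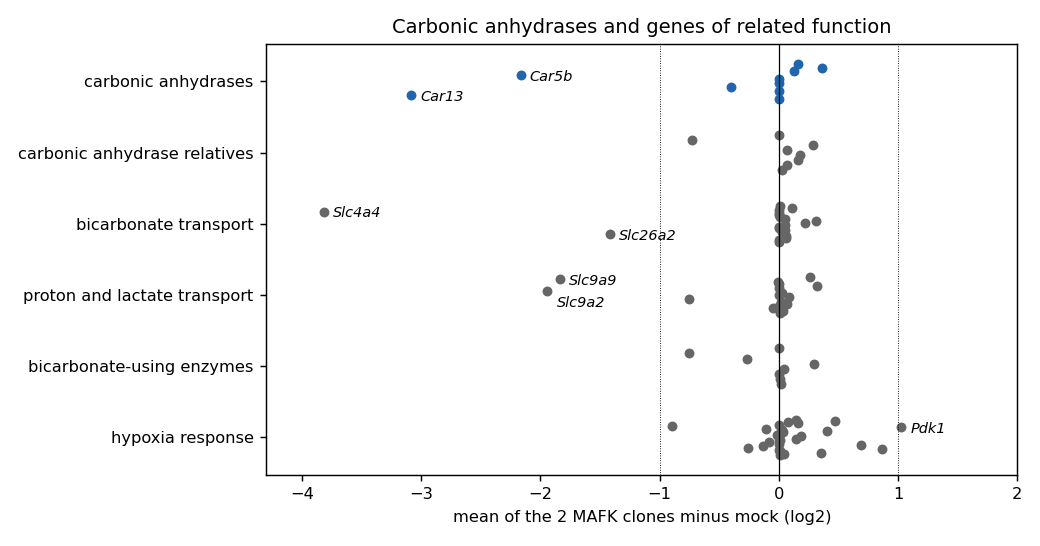
Mean of the 2 MAFK clones minus mock on the log2 scale (horizontal axis) for the 10 carbonic anhydrases (blue) and for the genes of 5 related lists (grey), 1 point per gene. Dotted lines mark 2-fold, and genes beyond it are named. Most points lie at or near 0, and Slc4a4 (-3.82) and Car13 (-3.08) lie lowest.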

How the data were processed

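The authors deposited log2 expression values per probe set, made with RMA per the submitters' processing notes; version, genome build and filters are not given in the sources used here. Probe sets with 1 annotated symbol (21780 of 28815) were named, with symbols updated by Entrez identifier through a GRCm38.p6 gene table, and the probe set with the highest mean stood for a gene. Differences are log2 values of a clone minus mock, and folds are 2 to that power. For genes outside the family, limma 3.58.1 in R 4.3.3 (lmFit, eBayes, two-sided, Benjamini-Hochberg over 19935 genes, adjusted p under 0.05) was fitted to 3 arrays with 1 residual degree of freedom, on the assumption of equal spread in mock and clones. The prior (1.93 degrees of freedom) came from the 8873 genes whose clones differed. Equal clone values give the smallest standard errors, which favours passing. The script was tested on simulated data, in which unshifted genes with equal clone values also equalled mock. In the data 55.5% of genes were equal in both clones and 34.3% on all 3 arrays. That test therefore gives no error rate for genes equal in the clones but not to mock.

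The members, the lists, the test and the rule for named genes were chosen with earlier results of these data known. Named genes were all family members, the list genes at least 2-fold from mock in both clones, up to 3 per list with the widest gap between the clones (none where the clones were equal), 6 neighbours on each side of the cluster, and the 5 genes most like Car13. The number of arrays limits the precision. Marker lists covered epithelial, mesenchymal, fat, skeletal muscle, red cell, endothelial and immune cells. Of them, 1 epithelial gene (Cdh1) fell and 2 of 6 mesenchymal genes rose (Fn1 and Pdgfrb). By direction alone, 3 of 8 epithelial genes were below mock in both clones and 2 (Krt7 and Krt19) above. Of the mesenchymal genes 3 were above mock in both clones and 2 (Vim and Cdh2) below. None of the 3 measured red cell genes was 2-fold from mock in both clones.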

Additional observations from a re-analysis of the deposited data

How the results depend on the processing

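Car13 and Car5b stayed at least 2-fold lower than mock in both clones under a second quantile normalization and centring of the arrays on their medians. No other carbonic anhydrase entered there or at a threshold of 1.5-fold, which cannot remove a gene already past 2-fold. The mean of all probe sets of a gene could not change these values, as each member had 1 probe set. Omission of genes below the median also leaves the values as they are. Under the normalization and the centring, the 4 genes equal on all arrays read -0.04 to -0.01 relative to mock, and Car2, Car6, Car8 and Car9 kept their direction. Taking one clone at a time, the difference of Car13 from mock ran from -4.36 to -1.80 and that of Car5b from -2.68 to -1.65, while 424 to 448 genes were at least 2-fold lower and 291 to 305 higher. One clone against mock leaves no residual degree of freedom and has no test. At 1.5-fold, 723 genes were lower in both clones and 507 higher. Under limma, 292 genes fell and 147 rose after centring, and 232 fell and 128 rose with an eBayes prior over all genes, against 152 and 80. Of the bicarbonate transporters 2 fell after centring, with the prior over all genes, with an intensity trend and with low genes left out, Slc26a2 being the second. Of the low-oxygen genes 1, Pdk1, rose with the prior over all genes and with a second quantile normalization. After centring, Pdk1 was under 2-fold in clone 10 (0.99). Of the genes around Car5b, Vegfd also fell after centring. Both scalings break the exact ties between the clones, so that nearly all genes enter the prior. Slc4a4, Slc9a2, Slc9a9 and Pir, all below the array medians in both clones, passed under all 7 alternatives to the limma fit. No paired analysis was possible because the labels give no replicate numbers and mock has 1 array. Genes low on all arrays limit what can be seen of Car3, Car4, Car8, Car9, Car12 and Car14. Car2 was below the array median in both clones, so its difference from mock may also be compressed.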

Other observations

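The genes whose pair of differences from mock lay nearest to that of Car5b were named after the values were seen. S100a4, on chromosome 3, lay 0.07 away on the log2 scale, with levels of 9.92 in clone 10 and 8.82 in clone 4, against 11.57 in mock. The cathepsin C gene Ctsc, the metallothionein gene Mt2, the tetraspanin-like Tm4sf4 and the B cell adaptor gene Blnk followed at distances of 0.31 to 0.35. Mt2 encodes a protein that binds zinc, the metal of the carbonic anhydrases, and read 11.02 in clone 10 and 10.21 in clone 4, against 12.98 in mock. None of these 5 genes is X-linked.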
